A study of Homo sapiens with 4 samples.

Results

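The neuronal pentraxins and the AMPA receptor subunits were followed in IMR-32 cells, a MYCN-amplified line established from a human neuroblastoma, after knockdown of the transcription factor NeuroD1. The 7 genes are NPTX1, NPTX2 and NPTXR, which encode the pentraxins of neurons, and GRIA1, GRIA2, GRIA3 and GRIA4, which encode the receptor subunits. They were picked by name from the 60612 genes of the count table, with the result of the same comparison already known. Their differences between the groups are therefore given as a description, and counts of passed thresholds among them are not read as tests. All 7 had reads, and all 7 passed the filter on low counts that left 17537 genes. GRIA1 passed it only through the group in which it was high.

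Poly(A) RNA was sequenced (RNA-seq) from 2 libraries of cells with a control hairpin (shControl) and 2 libraries of cells with a hairpin against NeuroD1 (shNeuroD1). Both groups were IMR-32 cells stably transduced with a hairpin that doxycycline switches on, and both received doxycycline at 1 µg/mL for 48 h, so the drug and the viral construct are shared. The genotype label calls the control cells WT. The study names them both as parental cells and as cells with a negative control hairpin, and they are called shControl here after the sample titles. Whether the libraries of a group came from separate cultures is not stated, so the spread between them may be technical. The titles number the shNeuroD1 libraries 1 and 2, and the paper numbers its 2 NeuroD1 hairpins in the same way. The shControl titles carry the same numbers, and they were read here as replicate numbers. The labels do not say whether the shNeuroD1 libraries share a hairpin or carry 1 each. A loss of NeuroD1 and another action of a hairpin therefore cannot be told apart. Total counts lay between 14665210 and 16482463 per library, and between 26071 and 27121 genes had a count. NEUROD1, the targeted gene, was counted 6174 and 6582 times in the shControl libraries and 969 and 886 times under the NeuroD1 hairpin. Its mean level in shNeuroD1 was 14.6% of that in shControl (log2 fold change -2.77, SE 0.0504, edgeR adjusted p = 8.6e-29). As bulk RNA, the libraries cannot tell fewer cells with a transcript from less of it per cell.

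AMPA receptors are the glutamate-gated channels that carry most fast excitatory transmission in the brain, and each is a tetramer of GRIA subunits. GRIA2 is the subunit that, once its RNA is edited, keeps calcium from passing through the channel. Neuronal pentraxins are secreted or, for NPTXR, membrane-anchored proteins that gather AMPA receptors at synapses. NPTX1 and NPTX2 form complexes with NPTXR, and NPTX2 is also known as an activity-regulated immediate early gene. Neuroblastoma arises from the sympathetic lineage, whose cells are not glutamatergic neurons. The noradrenergic identity of the cells was checked with 12 marker genes, all of which passed the filter. Their summed level was 2265 to 2280 CPM (counts scaled to library size) in shControl and 2031 to 2066 in shNeuroD1, with 4 of the 12 lower and 5 higher by edgeR's test. Within that list DBH, the enzyme that makes noradrenaline, was low, with means of 1.54 CPM in shControl and 0.756 CPM in shNeuroD1.

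The sequences that bear on these genes are their promoters and the alternative exons of GRIA2. NeuroD1 is a basic helix-loop-helix factor that binds E-boxes, so the windows from 250 bases before to 50 bases after a RefSeq transcript start (GRCh38.p14) were searched for CANNTG, which reads the same on both strands. Of the 7 genes 4 had such windows, 9 in all. Windows of NPTX1, NPTXR and GRIA3 were not used here. CANNTG occurred in 68.7% of 35116 windows of all genes, with a median of 1 match, so a match is common. CAGATG, with CATCTG as its other strand, occurred in 14.7% and CAGCTG in 17.9%, and both are also counted under CANNTG. Shown are the NPTX2 window, for a gene whose level differed little, and 1 window each of the 3 subunit genes that were higher in shNeuroD1. The windows shown were chosen after the matches were seen, and for GRIA2 and GRIA4 they are those with the most matches of 3 windows each. Capitals mark CANNTG, and all 4 are on the plus strand.
NPTX2, chr7:98617035-98617334: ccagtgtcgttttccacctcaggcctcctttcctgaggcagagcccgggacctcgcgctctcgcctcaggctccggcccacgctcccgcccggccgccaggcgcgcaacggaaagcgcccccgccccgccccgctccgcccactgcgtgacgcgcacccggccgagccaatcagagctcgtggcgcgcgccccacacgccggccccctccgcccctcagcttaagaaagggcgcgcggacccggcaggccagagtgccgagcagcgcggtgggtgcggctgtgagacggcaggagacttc
GRIA1, chr5:153490420-153490719: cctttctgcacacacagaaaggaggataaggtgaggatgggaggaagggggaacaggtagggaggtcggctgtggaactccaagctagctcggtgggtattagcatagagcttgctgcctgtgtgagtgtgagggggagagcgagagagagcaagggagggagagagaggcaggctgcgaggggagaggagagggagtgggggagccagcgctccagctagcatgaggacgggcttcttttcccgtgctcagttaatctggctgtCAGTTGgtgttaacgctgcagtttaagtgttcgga
GRIA2, chr4:157220082-157220381: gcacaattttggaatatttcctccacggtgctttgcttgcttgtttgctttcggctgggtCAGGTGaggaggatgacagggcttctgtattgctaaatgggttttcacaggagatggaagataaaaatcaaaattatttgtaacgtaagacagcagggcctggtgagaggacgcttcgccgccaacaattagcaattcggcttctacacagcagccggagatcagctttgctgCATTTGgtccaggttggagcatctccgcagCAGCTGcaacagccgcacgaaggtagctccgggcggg
GRIA4, chr11:105610456-105610755: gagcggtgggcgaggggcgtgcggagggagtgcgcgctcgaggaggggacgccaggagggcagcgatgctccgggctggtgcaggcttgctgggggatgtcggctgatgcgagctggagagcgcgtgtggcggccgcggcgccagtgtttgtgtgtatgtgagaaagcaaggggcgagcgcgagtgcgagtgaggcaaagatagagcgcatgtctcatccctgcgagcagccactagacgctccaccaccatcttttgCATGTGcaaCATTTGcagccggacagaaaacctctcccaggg
The NPTX2 window had a GC content of 74.3% and held no CANNTG. The GRIA1 window held CAGTTG at 15 bases past the start. In GRIA2, CAGGTG began 190 bases before the start, CATTTG 17 bases before it and CAGCTG 13 bases past it. The GRIA4 window held CATGTG and CATTTG, 8 and 17 bases past the start. Of the windows not shown, the other of GRIA1 held 2 matches, and those of GRIA2 held 2 in the window that starts at base 157219870 and none in the window that starts at 157220369. That empty GRIA2 window, with a GC content of 74.3%, is the closest to the GRIA2 starts at 157220668 and 157220694 listed in these data. The other 2 GRIA4 windows held none, and the window that starts at 105609744 is the closest to the GRIA4 starts at 105609994 and 105610029 listed in these data. CAGATG or CATCTG was found in none of the 9 windows. These matches are letters only, and no binding was measured here. The study mapped NeuroD1 binding in IMR-32 cells by ChIP-seq, and those peaks were not used here.

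GRIA2, like the other subunits, is spliced to include either the flop or the flip exon, alternatives that set how fast the channel desensitises. The exons are shown because the transcript tables described further on distinguish them. They are equal in length and lie on GRCh38 at chr4:157361010-157361124 for flop and chr4:157361538-157361652 for flip, on the plus strand. Capitals mark the 35 bases at which they differ, which leaves 69.6% identity.
GRIA2 flop: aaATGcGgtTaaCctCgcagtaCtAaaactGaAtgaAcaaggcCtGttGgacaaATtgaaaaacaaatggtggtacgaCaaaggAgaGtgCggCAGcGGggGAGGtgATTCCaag
GRIA2 flip: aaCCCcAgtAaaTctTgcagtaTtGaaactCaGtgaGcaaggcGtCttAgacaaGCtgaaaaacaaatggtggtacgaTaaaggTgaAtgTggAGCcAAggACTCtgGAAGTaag

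Among the pentraxins, NPTX1 was far lower in shNeuroD1, NPTX2 was nearly level and NPTXR was higher. Among the receptor subunits, GRIA1, GRIA2 and GRIA4 were higher, and GRIA3 differed by less than its spread. A gene was called where its log2 fold change exceeded 1 in either direction at an adjusted p under 0.05. By that rule 1 of the 7 was lower and 2 were higher, where 13.9% of all tested genes were called (5.14% lower and 8.79% higher). GRIA1, which passed the low-count filter only through shNeuroD1, is among the 2. At the adjusted p alone, 5 of the 7 passed, against 55% of all tested genes. The 2 groups did not overlap in 6 of the 7 genes, as in 76.1% of all tested genes. Since the genes were chosen with these values known, nothing is read from the shares.

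**Figure D1:**
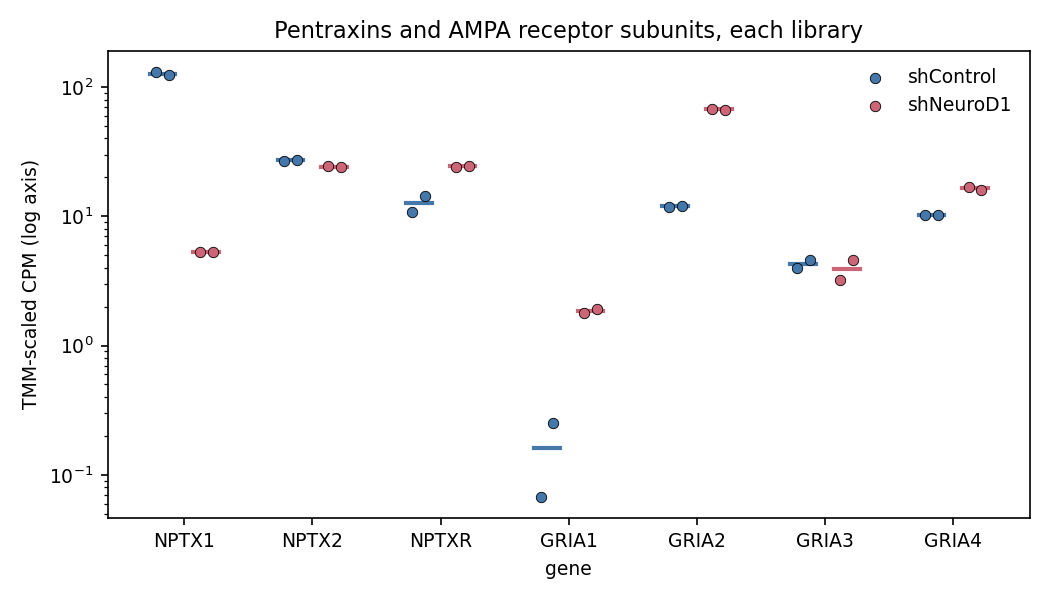
TMM-scaled CPM (log axis) of the 3 pentraxin and 4 AMPA receptor genes, a point per library and a line at the mean of the 2 libraries of a group. NPTX1 lies at 131 and 123 CPM in shControl and at 5.26 and 5.25 in shNeuroD1, while GRIA2 goes the other way, from 11.8 and 12.1 to 67.8 and 66.5.

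NPTX1 (ENSG00000171246) is a secreted pentraxin, encoded at chr17:80467148-80477843 on the minus strand (GENCODE 29, GRCh38, as for all gene positions here). The shControl libraries held 1925 and 1960 of its reads, and the shNeuroD1 libraries 80 and 80. Scaled by TMM, a factor that corrects for library composition, this was 131 and 123 CPM against 5.26 and 5.25 CPM. Both shNeuroD1 libraries lay far under both shControl libraries, and the shNeuroD1 mean was 4.14% of the shControl mean. The log2 fold change was -4.59 (SE 0.0864), a larger fall in size than that of NEUROD1 itself at -2.77.

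NPTX2 (ENSG00000106236), the activity-regulated pentraxin, is at chr7:98617297-98629868 on the plus strand. Its counts were 397 and 436 in shControl and 371 and 366 in shNeuroD1, or 26.9 and 27.5 CPM against 24.4 and 24.0 CPM. The groups did not overlap, but they lay close, with shNeuroD1 at 89.0% of shControl. The log2 fold change of -0.17 (SE 0.0872) became -0.06 when libraries were scaled by their size alone, a scaling that moved the median of all genes to 0.12.

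NPTXR (ENSG00000221890), the membrane-anchored pentraxin, is at chr22:38818452-38843982 on the minus strand. Its counts of 159 and 228 in shControl stood against 365 and 374 in shNeuroD1. In CPM this was 10.8 and 14.4 against 24.0 and 24.6, so the shControl libraries differed more from each other than the shNeuroD1 libraries did. The mean in shNeuroD1 was 193% of that in shControl, a log2 fold change of 0.94 (SE 0.115). It was 0.75 without shControl replicate 1, 1.16 without shControl replicate 2, and 1.06 with libraries scaled by their size alone. A single library or the scaling thus decides on which side of 1 it falls.

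GRIA2 (ENSG00000120251), the subunit that governs calcium passage, is at chr4:157204182-157366075 on the plus strand. Reads numbered 174 and 192 in shControl against 1031 and 1013 in shNeuroD1. The levels were 11.8 and 12.1 CPM against 67.8 and 66.5 CPM, with a gap between the groups many times the distance between replicates. The fold from summed counts was 5.62, with an exact binomial 95% interval of 5.02 to 6.30 that covers counting error only. The fitted log2 fold change was 2.49 (SE 0.0823).

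GRIA1 (ENSG00000155511), the subunit best known for activity-dependent delivery to synapses, is at chr5:153489615-153813869 on the plus strand. It was barely detected in shControl, with 1 and 4 counts, and had 27 and 29 counts in shNeuroD1. In CPM the values were 0.0678 and 0.252 against 1.77 and 1.9. The groups stood apart, but the size of the difference rests on 5 counts. The fold from summed counts was 11.3 with an exact binomial 95% interval of 4.55 to 36.0. The fitted log2 fold change of 3.43 (SE 0.556) was 2.82 without shControl replicate 1 and 4.59 without shControl replicate 2.

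GRIA4 (ENSG00000152578), a subunit with fast kinetics, is at chr11:105609994-105982092 on the plus strand. Its counts were 151 and 161 in shControl against 257 and 243 in shNeuroD1. The levels of 10.2 and 10.1 CPM against 16.9 and 16.0 CPM did not overlap, and the shNeuroD1 mean was 161% of the shControl mean. The log2 fold change was 0.69 (SE 0.123).

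GRIA3 (ENSG00000125675), the X-linked subunit at chrX:123184153-123490915 on the plus strand, was the only gene of the 7 whose groups overlapped. Its counts were 59 and 73 in shControl against 49 and 70 in shNeuroD1, or 4.0 and 4.60 CPM against 3.22 and 4.60 CPM. The log2 fold change was -0.14 (SE 0.221) and became 0.09 without shNeuroD1 replicate 1. The fold from summed counts was 0.907, with an exact binomial 95% interval of 0.702 to 1.17.

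GENCODE places other genes inside 3 of the subunit genes. They are RN7SL177P in GRIA1, a processed pseudogene (ENSG00000249819) in GRIA2, and RNU4-55P, RNU6-277P and HSPD1P13 in GRIA4. None of them shares an exon with its host. The use of strand in counting was not given in the sources used here, so reads from a partner on the other strand could not be set apart.

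**Figure D2:**
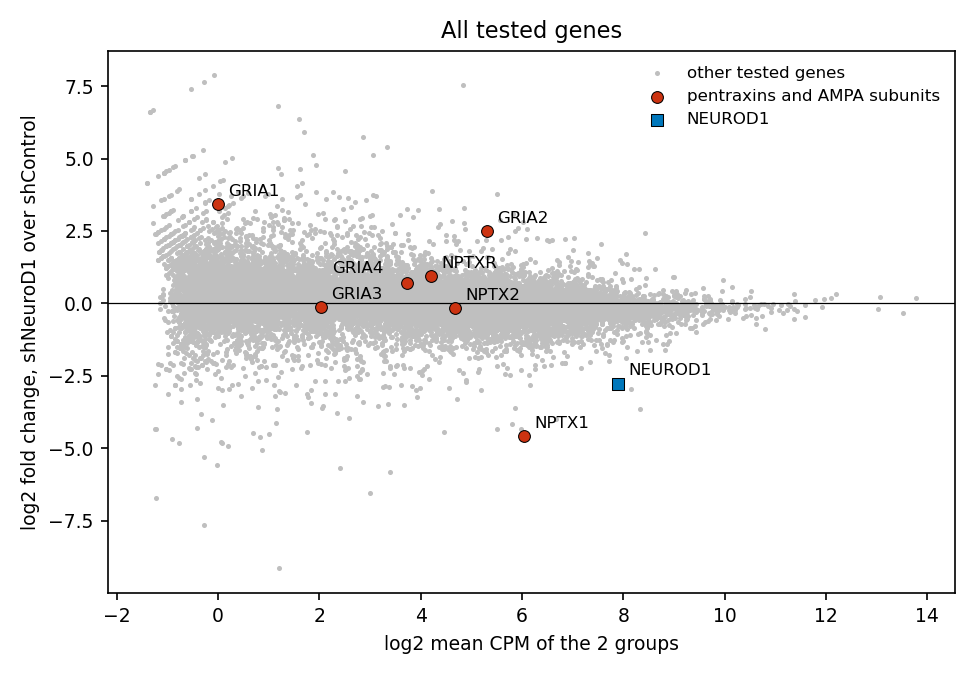
Log2 fold change (shNeuroD1 over shControl) against log2 mean CPM for the 17537 tested genes, with the pentraxin and AMPA receptor genes as red circles and NEUROD1 as a blue square. NPTX1 (-4.59) and GRIA2 (2.49) sit at the edges of the cloud at their level, and GRIA1 (3.43) lies where genes scatter widely because counts are low.

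Levels of different genes were compared per kilobase of merged exons. In shControl the order of mean levels was NPTX1 (18.9 CPM per kb), NPTX2 (9.02), NPTXR (2.17), GRIA2 (1.34), GRIA4 (1.01), GRIA3 (0.663) and GRIA1 (0.0209). In shNeuroD1 it was NPTX2 (8.03 CPM per kb), GRIA2 (7.51), NPTXR (4.20), GRIA4 (1.63), NPTX1 (0.784), GRIA3 (0.603) and GRIA1 (0.241). Neighbours in either order did not overlap in their 2 libraries. The order of the top pair in shNeuroD1 depends on the length used: per kilobase of the longest transcript, GRIA2 was at 11.9 and NPTX2 at 8.97 CPM per kb, and in shControl GRIA2 at 2.13 lay next to NPTXR at 2.17. Thus NPTX1 went from the highest of the 7 to the fifth, and GRIA2 from the fourth to the second. Among 17303 genes ranked per library by level per kb, NPTX1 stood at percentiles 85.8 and 85.1 in shControl and 16.1 and 16.0 in shNeuroD1. GRIA2 stood at 26.9 and 27.0 in shControl and at 65.8 and 65.1 in shNeuroD1.

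The make-up of both families differed between the groups. The 4 subunit genes summed to 2.96 and 3.10 CPM per kb in shControl and to 9.98 and 9.98 in shNeuroD1. GRIA2 made up 44.6% and 43.6% of that sum in shControl and 75.9% and 74.5% in shNeuroD1. The share of GRIA4 was 34.3% and 32.4% against 16.8% and 15.9%, although its own level was higher in shNeuroD1. GRIA3 made up 20.8% and 22.9% against 4.98% and 7.10%. The share of GRIA1 stayed small, at 0.300% and 1.06% against 2.33% and 2.50%.

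The neuronal pentraxin genes summed to 30.3 and 30.0 CPM per kb in shControl and to 13.0 and 13.0 in shNeuroD1, the reverse of the subunits. NPTX1 made up 64.3% and 61.4% of the pentraxin sum in shControl and 6.03% and 6.03% in shNeuroD1. NPTX2 thereby became the main transcript among the neuronal pentraxins, with 29.5% and 30.3% against 62.1% and 61.3%. The share of NPTXR was 6.16% and 8.27% against 31.9% and 32.7%. These shares follow from the same counts as the fold changes and are not separate evidence.

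**Figure D3:**
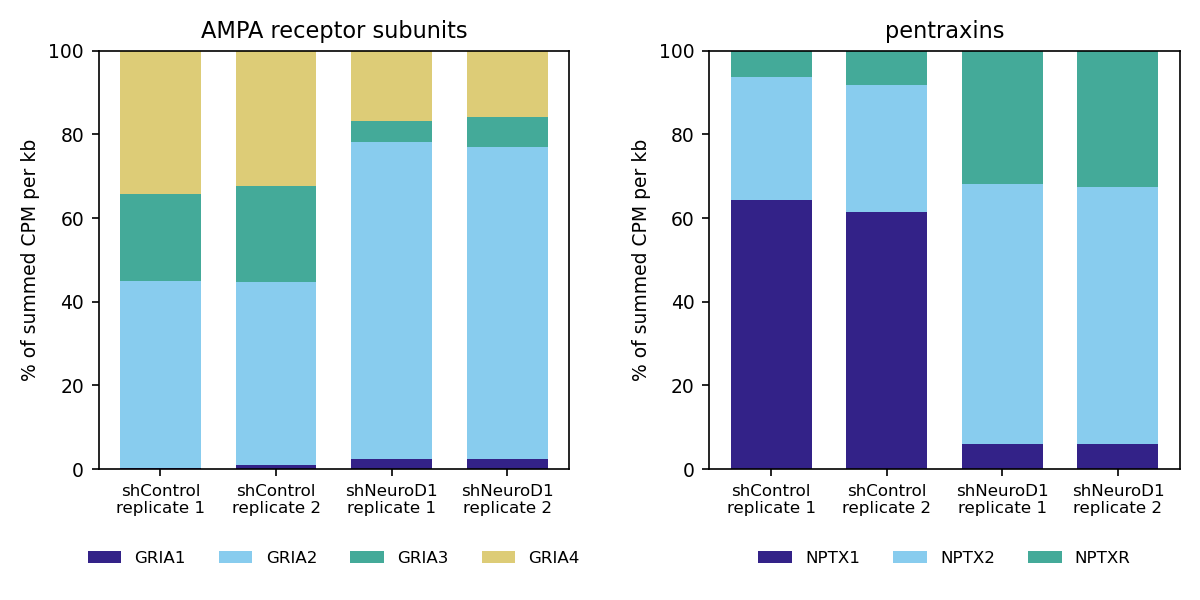
Share of each gene in the summed CPM per kb of its family (percent), a stacked bar per library, with AMPA receptor subunits on the left and pentraxins on the right. GRIA2 takes 43.6% to 44.6% of the subunit sum in shControl and 74.5% to 75.9% in shNeuroD1, and NPTX1 takes 61.4% to 64.3% of the pentraxin sum in shControl and 6.03% in shNeuroD1.

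The authors also deposited, per library, FPKM values (fragments normalised by length and depth) of transcript starts, ends and splicing events in assembled transcripts. An event is listed only where it has a value, so an unlisted event is not a measured 0. GRIA2 had 3 and 7 listed events in shControl and 25 and 25 in shNeuroD1, while GRIA1 had none in any library. The GRIA2 start at base 157220668, which is 49 bases past a RefSeq start, was listed in shNeuroD1 alone, at 2.13 and 2.72 FPKM. A further start at 157220694 was listed in all 4 libraries, at 0.580 and 0.406 FPKM in shControl and 3.66 and 0.863 in shNeuroD1. The start at 157221598, also listed in all 4, went the other way, with 0.146 and 1.04 FPKM in shControl and 0.0626 and 0.0475 in shNeuroD1, and it was the highest GRIA2 start of shControl replicate 2. The values at 157220694 differed between the shNeuroD1 replicates more than the GRIA2 counts did.

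The GRIA2 events that separate flip from flop were listed in the shNeuroD1 libraries and in neither shControl library. Transcripts with the flip exon and without flop had 2.28 and 2.88 FPKM. Transcripts with flop and without flip had 0.115 and 0.984 FPKM. A form with both exons had 1.23 FPKM in replicate 1 and was unlisted in replicate 2. The flip form thus took 62.9% and 74.5% of the 3 forms, and was the largest in both libraries. No comparison with shControl is possible for this choice.

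In GRIA4, the start at 105610672, which is 34 bases before the RefSeq start of the window shown above, had 0.570 and 0.230 FPKM in shControl and 1.25 and 1.38 in shNeuroD1. The start at 105610029 had 0.838 and 2.09 FPKM against 0.591 and 2.45, with the groups overlapping. Skipping of the GRIA4 flop exon was listed in shNeuroD1 alone, at 0.533 and 0.665 FPKM. For NPTX1 the single listed event was a start, at 17.2 and 15.6 FPKM in shControl and 0.709 and 0.328 in shNeuroD1. The NPTX2 start lay exactly at the RefSeq start and had 7.0 and 7.20 FPKM against 6.97 and 6.71. The NPTXR transcript end had 1.39 and 1.78 FPKM against 3.31 and 3.52. Summed over listed starts, GRIA2 had 0.726 and 1.82 FPKM in shControl against 6.72 and 4.01, which did not overlap. The sums overlapped for GRIA4, at 1.41 and 2.50 FPKM against 1.84 and 3.83. They overlapped for GRIA3 too, at 0.236 and 0.574 FPKM against 1.26 and 0.551, with the mean higher in shNeuroD1 where that of its counts was lower. The tables come from the same libraries as the counts.

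The proteins that work with AMPA receptors and pentraxins were read out from 66 partner genes in 5 lists, of which 52 passed the filter. By edgeR's quasi-likelihood test with Benjamini-Hochberg adjustment over all 17537 genes, 18 of the 52 fell and 27 rose in shNeuroD1, and 7 did neither. That is 34.6% lower and 51.9% higher, beside 28.2% and 26.8% of all tested genes. The median log2 fold change was 0.20 over the partner genes and 0.01 over all genes. Beyond 1 in size, 6 were lower and 10 higher, together 30.8% of the 52. Of all tested genes 13.9% were called by that rule, 5.14% lower and 8.79% higher. The partner lists were drawn up with earlier results of these data known, so nothing is read from these shares. With limma on log2(gene FPKM + 1), which could be run on 33 of the partner genes, 0 lower and 1 higher passed, and 3 lower and 13 higher had an unadjusted p under 0.05.

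**Figure D4:**
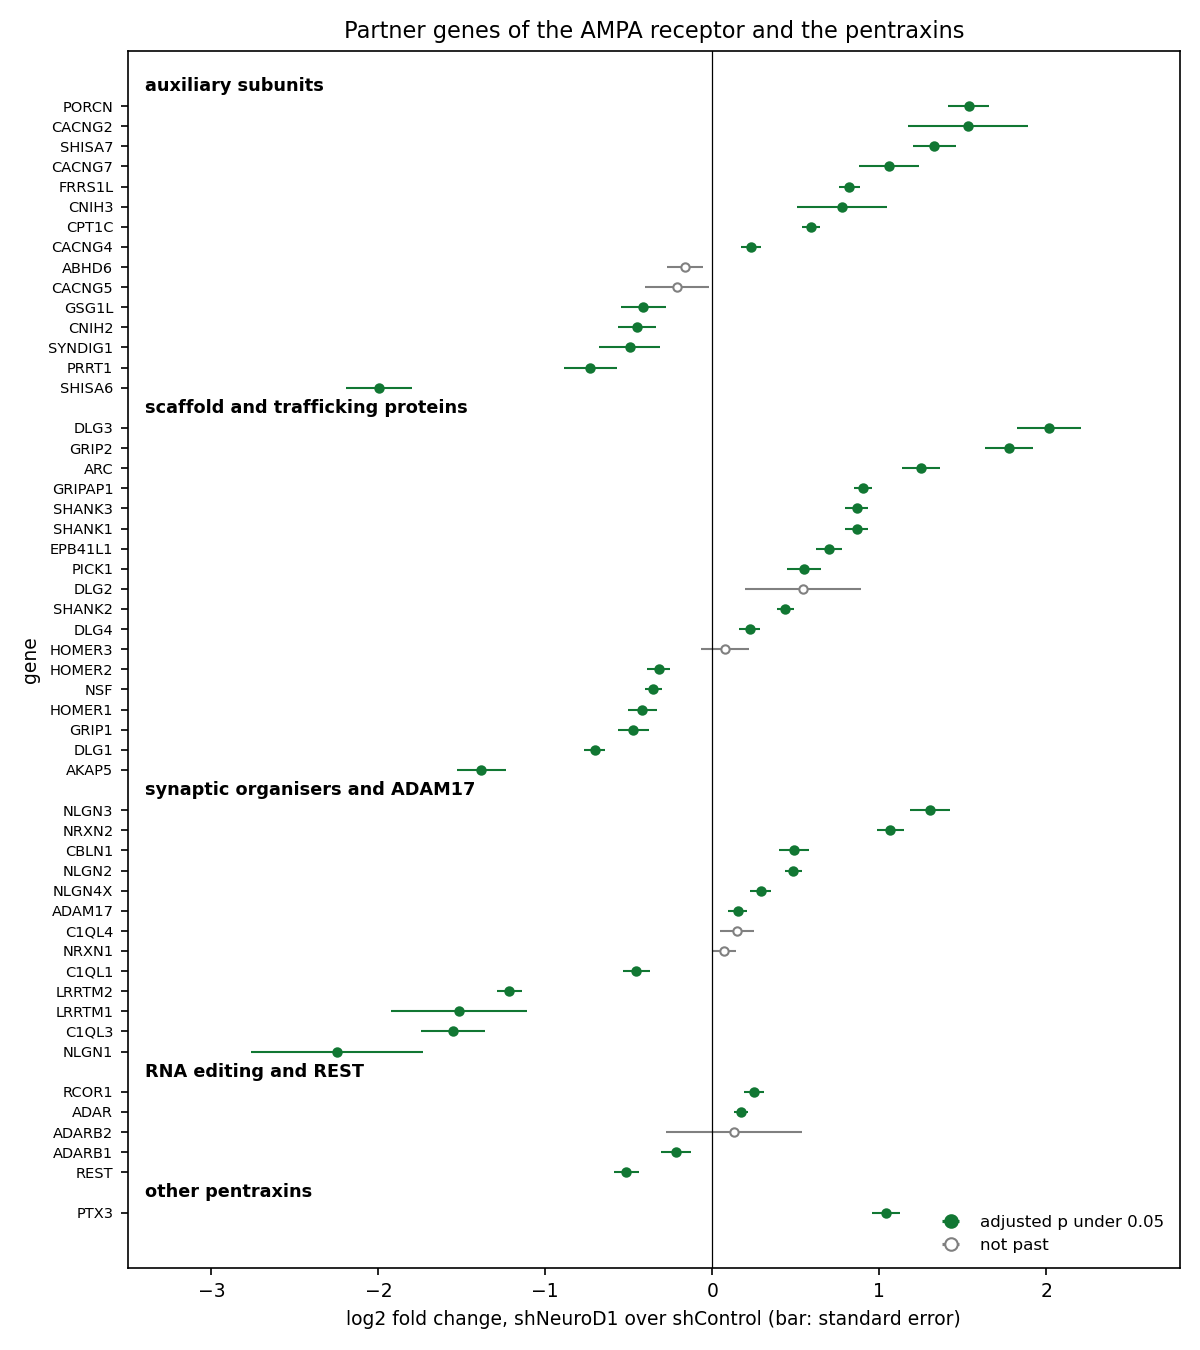
Log2 fold change (shNeuroD1 over shControl, bars are standard errors) of the 52 tested partner genes by list, filled where edgeR's adjusted p is under 0.05. Genes of each of the 3 large lists lie on both sides of 0, from NLGN1 at -2.25 to DLG3 at 2.02.

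Auxiliary subunits bind the receptor and set its trafficking and gating. Of 19 genes 15 were tested, of which 5 fell and 8 rose, with a median log2 fold change of 0.23. SHISA6, which keeps receptors at the synapse, fell from 12.9 and 9.76 CPM to 3.29 and 2.36 (log2 fold change -2.0, edgeR adjusted p = 2.4e-10). PORCN, an acyltransferase that also associates with the receptor, rose from 8.55 and 7.31 CPM to 23.0 and 22.9 (1.53, edgeR adjusted p = 1.7e-12). SHISA7, a further auxiliary subunit of that family, rose from 6.85 and 8.06 CPM to 18.8 and 18.8 (1.33, edgeR adjusted p = 2.1e-10). CACNG2, which encodes stargazin, the founding transmembrane AMPA receptor regulatory protein, had low levels of 0.746 and 1.01 CPM and rose to 2.30 and 2.82 (1.53, edgeR adjusted p = 5.1e-04). Its adjusted p was 0.0513 without shControl replicate 1.

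Scaffold and trafficking proteins anchor the receptor or move it to and from the membrane. All 18 were tested, of which 6 fell and 10 rose, with a median log2 fold change of 0.49. DLG3, the scaffold SAP102, rose from 2.17 and 3.09 CPM to 10.8 and 10.6 (log2 fold change 2.02, edgeR adjusted p = 1.1e-10). GRIP2, which binds the tails of GRIA2 and GRIA3, rose from 4.82 and 5.10 CPM to 16.5 and 17.5 (1.78, edgeR adjusted p = 2.8e-12). ARC, an immediate early gene that promotes removal of receptors from the membrane, rose from 9.36 and 10.5 CPM to 22.6 and 24.8 (1.25, edgeR adjusted p = 5.5e-11). AKAP5, which tethers kinases and a phosphatase near the receptor, fell from 14.1 and 13.4 CPM to 5.26 and 5.25 (-1.38, edgeR adjusted p = 1.6e-09).

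Synaptic organisers bridge the cleft at synapses, and ADAM17 is the protease that sheds NPTXR from the membrane. Of the 20 genes 13 were tested, of which 5 fell and 6 rose, and 3 had no count in any library. C1QL3, a secreted organiser, fell from 8.62 and 8.94 CPM to 3.35 and 2.63 (log2 fold change -1.55, edgeR adjusted p = 2.9e-08). LRRTM2, a postsynaptic partner of neurexins, fell from 57.5 and 57.6 CPM to 26.0 and 23.5 (-1.22, edgeR adjusted p = 3.6e-15). LRRTM1 fell from 2.04 and 1.76 CPM to 0.789 and 0.525 (-1.52, edgeR adjusted p = 0.00198), a call lost in DESeq2 (adjusted p = 0.0684) and without shControl replicate 1 (0.0692). NLGN3, a postsynaptic neuroligin, rose from 9.70 and 8.31 CPM to 22.2 and 22.3 (1.30, edgeR adjusted p = 4.6e-11). ADAM17 rose slightly, from 63.2 and 61.1 CPM to 69.4 and 68.6 (0.15, edgeR adjusted p = 0.0296), a call that leaving out any of the 4 libraries ended (adjusted p between 0.0750 and 0.175). NLGN1 and ADAM17 are named beyond the rule, after their values were seen.

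Of the 4 pentraxins outside the neuronal family, 1 passed the filter. CRP and APCS, the short pentraxins of liver, had no counts, and PTX4 had 1 count in all. PTX3, a long pentraxin of inflammation, rose from 22.0 and 20.5 CPM to 45.4 and 42.0 (log2 fold change 1.04, edgeR adjusted p = 1.9e-12).

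Editing enzymes and the repressor REST complete the lists, since editing sets the calcium passage of GRIA2 and REST is known to silence neuronal genes, GRIA2 among them, outside neurons. REST fell from 43.8 and 45.7 CPM to 29.6 and 33.1 (log2 fold change -0.51, edgeR adjusted p = 8.6e-07), and its cofactor RCOR1 rose from 64.9 and 69.5 CPM to 80.1 and 79.7 (0.25, edgeR adjusted p = 4.7e-04). ADAR rose from 410 and 429 CPM to 473 and 473 (0.17, edgeR adjusted p = 5.7e-04). ADARB1, the enzyme that edits the GRIA2 site, was 29.1 and 33.8 CPM against 25.4 and 28.8, so its groups lay close (-0.22, edgeR adjusted p = 0.0379). That call was lost with DESeq2 (adjusted p = 0.248) and with library size alone (0.322). Editing itself was not measured, and a link between REST and the level of GRIA2 was not tested.

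Markers of other cell types differed between the groups as well, not all in 1 direction. The summed level of 10 mesenchymal markers was 492 CPM in both shControl libraries and 721 to 730 CPM in shNeuroD1, with PRRX1 at 0. Of the 7 tested, 5 fell and 2 rose, so the sum does not stand for the list. VIM, an intermediate filament gene, rose from 241 to 547 CPM (log2 fold change 1.18, edgeR adjusted p = 1.7e-21). The other that rose was CD44, from 9.01 to 19.0 CPM (1.07, edgeR adjusted p = 1.2e-08). Without VIM the other 9 summed to 249 and 253 CPM in shControl and to 180.1 and 177 in shNeuroD1. TWIST1 held the largest part of that sum, with means of 139 and 94.2 CPM, so this sum does not stand for the list either. YAP1, a transcriptional coactivator, fell by 1.5 on the log2 scale (edgeR adjusted p = 3.4e-09). The 6 Schwann cell lineage markers summed to 5.42 to 5.43 CPM against 8.74 to 10.1, with FOXD3 at 0, and 2 of the 4 tested rose. The 6 markers of glutamatergic neurons summed to 6.74 to 7.06 CPM against 2.96 to 3.48, of which most was SLC17A7. SLC17A7, a vesicular glutamate transporter, fell from 5.36 and 5.23 CPM to 1.77 and 1.9 (-1.52, edgeR adjusted p = 2.5e-06). TBR1, a cortical transcription factor, rose from 0.0678 and 0.504 CPM to 0.855 and 1.05 (1.67, edgeR adjusted p = 0.0180), and the other 4 of that list did not pass the filter. Blood and endothelial markers summed to at most 0.657 and 2.71 CPM in any library, with CD3E and AIF1 at 0. The part of these marker differences in the values of the 7 genes was not tested.

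Genes with the most similar pattern over the 4 libraries were found by the distance between centred log2 CPM profiles, with genes under a mean of 10 CPM left out. For NPTX1 these were CCKAR (distance 0.289), a cholecystokinin receptor, NGFR (0.296), the low-affinity neurotrophin receptor, and NHLH1 (0.306), a basic helix-loop-helix factor, out of 10559 genes. CCKAR was 119 and 120 CPM in shControl and 6.31 and 5.52 in shNeuroD1, close to NPTX1 in CPM too, without a correction for gene length. For GRIA1 the nearest were SHC3 (0.330), PPP2R2C (0.359) and DTNA (0.497). SHC3, an adaptor protein of neurons, was 5.97 and 8.56 CPM against 51.4 and 49.2. For GRIA2, added after its values were seen, they were VGF (0.0669), a secreted neuropeptide precursor, MEG3 (0.0800), a long non-coding RNA, and NSG2 (0.0932), an endosomal protein of neurons. VGF was 17.1 and 17.7 CPM in shControl and 96.6 and 101 CPM in shNeuroD1. With 2 groups of 2 libraries, such likeness mostly restates a similar fold change.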

How the data were processed

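IMR-32 RNA-seq was analysed in 2 shControl and 2 shNeuroD1 libraries, grouped by sample titles. Raw counts of reads per gene, deposited by the authors, covered 60612 Ensembl IDs. The submitters' processing notes name cutadapt 1.9.1, HISAT2 2.0.1, HTSeq 0.6.1, DESeq2 and hg38, and strand use in counting was not given in the sources used here. The authors also deposited, per library, FPKM values of transcript starts, ends and splicing events, which list only events with a value. Positions are from GENCODE 29 on GRCh38, where 91.2% of 15874 deposited transcript ends overlapped their gene. Symbols were matched for 60401 gene IDs, and promoter windows are from RefSeq.

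Counts were fitted in edgeR 4.0.16 (R 4.3.3) with filterByExpr (minimum count 10), TMM scaling and the two-sided quasi-likelihood F test, adjusted over 17537 genes. The SE is the log2 fold change divided by the square root of F. Tests with DESeq2 1.42.0 and limma 3.58.1 were alternatives, the latter on gene FPKM summed over transcript starts with a mean of at least 1. The fits were tested on simulated data. Replicates of a group differed beyond sampling noise (chi-square per gene 2.71 in shControl and 1.58 in shNeuroD1), so none is a library deposited again.

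The 7 genes, the partner lists and the marker lists were chosen with earlier results of these data known. Genes named are the 7, NEUROD1, up to 4 partner genes per list with the largest log2 fold change in size at an adjusted p under 0.05 and a mean of at least 1 CPM, the 3 nearest in pattern to the gene that fell most and the gene that rose most, and genes overlapping the 7. Intervals cover counting error only. Values of some single marker genes are not reported here.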

Additional observations from a re-analysis of the deposited data

How the results depend on the processing

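The log2 fold changes of the 7 genes gave 52 values under other scalings, filters, tests and a replicate block, of which 46 kept direction and side of the threshold. The other 6 were limma on FPKM, with pseudocounts of 1 and 0.1, and none passed the adjusted p threshold. There NPTXR was 0.78 and 1.07, GRIA2 1.49 and 2.07, and GRIA4 0.35 and 0.48. GRIA1 and GRIA3 did not reach a mean of 1 FPKM. Leaving out 1 library gave ranges of -4.64 to -4.56 for NPTX1, -0.19 to -0.16 for NPTX2, 0.75 to 1.16 for NPTXR, 2.82 to 4.59 for GRIA1, 2.46 to 2.50 for GRIA2, -0.42 to 0.091 for GRIA3 (the latter without shNeuroD1 replicate 1) and 0.64 to 0.73 for GRIA4.

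Of all genes, 902 were called lower and 1541 higher. Both limma fits, on 10084 genes, called 201 and 206 lower and 186 and 174 higher, DESeq2 called 998 higher, and without a fold change limit 4939 were lower and 4698 higher. Leaving out 1 library gave 750 to 901 lower and 1054 to 1337 higher. The partner genes at 18 lower and 27 higher became 0 and 0 lower and 1 and 1 higher in the limma fits, and 13 to 18 lower and 23 to 25 higher without 1 library. Of 385 values of partner genes and NEUROD1 outside the left-out libraries, 308 kept direction and call, 73 lost the call, 2 gained it and 2 changed sign. The sign changed for ABHD6 (0.012 and 0.016 in limma), and without a library for HOMER3 (-0.18 and -0.02) and ADARB2 (-0.38 to 0.50). NEUROD1 was -0.96 and -1.08 in the limma fits (adjusted p = 0.291 and 0.288), where 67 of the 68 listed events under its identifier lie outside the annotated gene. Whether those events bear on the NEUROD1 values was not tested, and neither was the cause of the other changes.

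Deviations of same-numbered libraries from their group means were nearly uncorrelated over the genes (correlation 0.0158). Counting noise enters these deviations, so the value cannot exclude that such libraries were handled together. With the replicate block, 899 genes were called lower and 1511 higher, and no call among the partner genes changed. Depth limits GRIA1, with 5 counts in shControl, and GRIA3.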
